A study of Mus musculus with 21 samples.

Results

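Adipocyte genes are the genes whose products let fat cells store fat, release it and signal to other organs. The 10 genes described here were chosen by name, as the rows with the symbols Adipoq, Lep, Retn, Plin1, Plin4, Cidec, Cidea, Lipe, Fabp4 and Pparg among the 55491 rows of each of the 2 deposited gene count tables. All 10 symbols were found once in the skin table and once in the lymph node table.

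The study asked what lasting overproduction of interferon kappa by the epidermis does to mice. The transgenic (TG) mice carry Ifnk under the keratin 14 promoter, which is active in basal keratinocytes; the transgene was made on C57Bl/6 and backcrossed onto BALB/c, and wild-type (WT) mice served as controls. Bulk polyA RNA was sequenced from whole skin of 12-month-old mice in 9 samples, with 3 of WT skin, 2 of nonlesional TG skin and 4 of lesional TG skin, none of them treated with UVB. It was also sequenced from inguinal lymph nodes in 12 samples, with 3 in each of 4 groups, namely untreated WT, untreated TG, UVB-treated WT and UVB-treated TG.

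UVB was given at 250 mJ/cm2 on 3 days a week for 2 weeks, and the nodes were taken after a further 2 weeks and pressed through a 70 µm strainer before lysis. The labels put every sample in batch 1. They give no sex, no skin site and no mouse for any sample, and no age for the lymph node mice, so the p-values measure the spread between these samples, which may or may not come from separate mice. Total counts ran from 40499078 to 56511276 per skin sample and from 27599809 to 36428435 per lymph node sample. Levels are given as CPM, which are counts scaled to library size and TMM factors, and where genes are compared with each other they are given per kilobase of exon. Intervals and detection limits cover counting error only, since the reads carry no molecular identifiers.

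As background, white adipocytes keep triglyceride in a single large droplet whose surface is covered by perilipins and enlarged by fusion proteins, and hormone-sensitive lipase breaks the stored fat down. The transcription factor PPARγ drives this programme, and the cells release the hormones adiponectin, leptin and, in mice, resistin. In skin, adipocytes form a layer under the dermis that thickens and thins with the hair cycle; a lymph node sits inside a fat pad that is largely trimmed away when the node is taken.

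In WT skin the 10 genes were expressed at very different levels. Per kilobase of exon in coding transcripts, Fabp4 was the highest at 2985 ± 1048 CPM (SD, n = 3), followed by Adipoq at 876 ± 209 and Cidec at 484 ± 163. Plin4 (181 ± 35.1), Retn (174 ± 41.9), Lep (145 ± 59.9) and Plin1 (144 ± 39.4) formed a middle group whose neighbours did not differ beyond their spread. Below them came Lipe at 84.2 ± 20.0, Cidea at 35.6 ± 8.67 and Pparg at 26.3 ± 7.92 CPM per kilobase. The place of Fabp4 rests on the length used, since its coding transcripts have 896 exon bases and all its transcripts 4489, and over the longer length it was at 596 ± 209, below Adipoq. All 10 genes had counts in all 9 skin samples, which alone does not show that each of them marks adipocytes there. Across these samples Cidea ran against Adipoq (Pearson's r of log2 CPM -0.88).

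Together the 10 genes took the largest share of counts in WT sample 8, at 0.962% (exact Clopper-Pearson 95% interval 0.959 to 0.965), and the smallest in lesional sample 5, at 0.0935% (0.0926 to 0.0945). Summed, they reached 10085, 7583 and 5890 CPM in WT samples 8, 9 and 10, 6344 and 4864 CPM in nonlesional samples 2 and 3, and 2966, 934, 3029 and 3732 CPM in lesional samples 4, 5, 6 and 7. All lesional sums were below all WT and nonlesional sums, and lesional sample 5 was far below the other lesional samples. In bulk tissue, fewer adipocytes and less of these RNAs per adipocyte cannot be told apart.

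**Figure D1:**
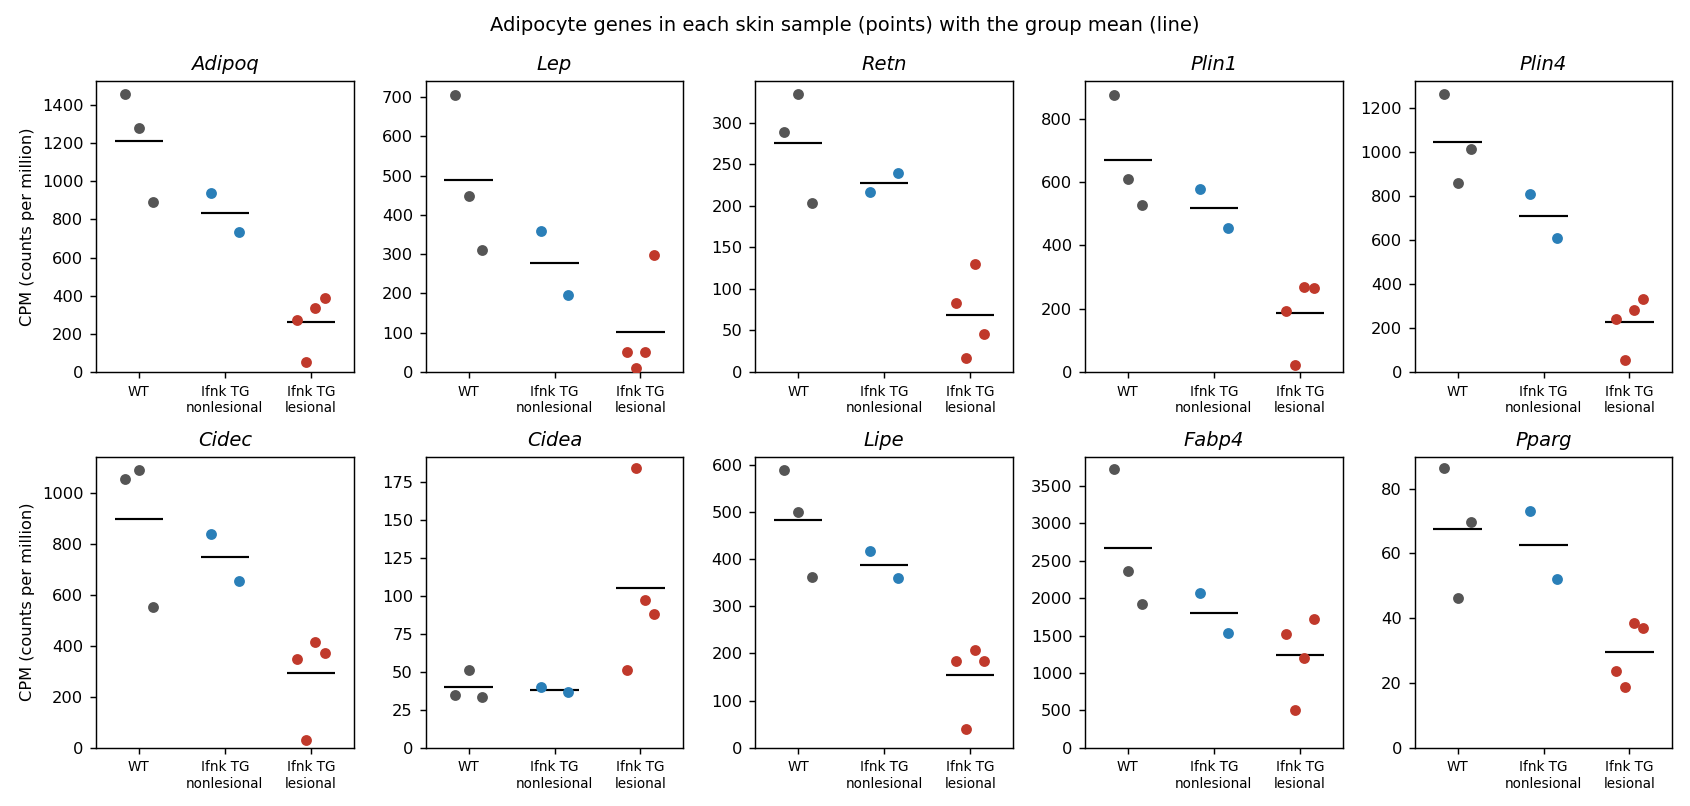
Level of each of the 10 genes in CPM in every skin sample (points) with the group mean (line), for 3 WT, 2 nonlesional TG and 4 lesional TG samples. All 4 lesional points lie below the WT points for 9 genes and above them for Cidea.

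Because 9 of the 10 genes were lower in all lesional samples than in all WT samples, the promoter sequences of genes from this set are shown. RefSeq promoter windows were held for 8 of the 10 genes, all but Fabp4 and Cidea, and the 250 bases before the start of Adipoq, Lep and Plin4, the members with the largest fold differences and a single window each, are printed 5′ to 3′ in the direction of transcription on GRCm38.p6. They lie at chr16:23146286-23146535 on the plus strand (Adipoq), chr6:29059971-29060220 on the plus strand (Lep) and chr17:56109783-56110032 on the minus strand (Plin4). The starts are those of RefSeq. In Lep and Plin4 they lie inside the span that GENCODE gives for the gene, in Lep by a single base, so that the end of each window, and in Plin4 the marked match, is within that span. Capitals mark a CCAAT box (CCAAT) or the C/EBP palindrome (TTGCGCAA) on either strand.
Adipoq: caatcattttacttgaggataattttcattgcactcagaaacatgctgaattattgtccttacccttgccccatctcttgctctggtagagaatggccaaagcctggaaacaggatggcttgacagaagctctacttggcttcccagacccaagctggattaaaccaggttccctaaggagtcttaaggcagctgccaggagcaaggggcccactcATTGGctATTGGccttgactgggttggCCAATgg
Lep: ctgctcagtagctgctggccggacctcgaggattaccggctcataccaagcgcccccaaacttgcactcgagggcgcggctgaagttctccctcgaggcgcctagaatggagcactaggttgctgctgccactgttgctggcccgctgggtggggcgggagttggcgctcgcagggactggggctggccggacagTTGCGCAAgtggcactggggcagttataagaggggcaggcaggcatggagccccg
Plin4: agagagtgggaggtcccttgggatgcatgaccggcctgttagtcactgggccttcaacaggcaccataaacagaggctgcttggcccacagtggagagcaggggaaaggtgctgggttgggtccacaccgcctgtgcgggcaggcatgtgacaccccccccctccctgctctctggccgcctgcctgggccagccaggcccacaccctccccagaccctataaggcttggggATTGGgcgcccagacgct

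The searched letters were CCAAT, the TATA box TATAAA, TTGCGCAA, the nuclear receptor core site AGGTCA and the E box CACGTG, on both strands; no match of one overlapped a match of another in the printed windows. CCAAT stood in the windows of Adipoq (3 matches, all within 34 bases of the RefSeq start), Plin4 (1 match, 18 to 14 bases before it) and Pparg, in 4 of the 12 windows of the 8 genes, and in 33.8% of all 32851 promoter windows of this length. TTGCGCAA stood in the window of Lep, 55 to 48 bases before the start, and in 0.164% of all windows. Among the same 12 windows, AGGTCA (14.0% of all windows) was found only in windows of Pparg, CACGTG (6.02%) only in a window of Lipe, and TATAAA (12.4%) only in a window of Pparg. A match describes the letters and is not evidence of binding.

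Lesional TG skin was compared with WT skin to see how adipocyte RNA differs where the transgenic skin has visible disease. Of the 10 genes, 6 fell (Adipoq, Plin4, Retn, Lipe, Pparg and Fabp4), 1 rose (Cidea), and Lep, Plin1 and Cidec did not pass the test. The test was edgeR's quasi-likelihood F-test over all 19101 genes that passed the filter in skin, among which 20.2% were called lower and 23.0% higher at an adjusted p under 0.05. Every lesional sample was below every WT sample for 9 of the 10 genes and above for Cidea, against 23.4% and 26.0% of all genes tested. The median log2 fold change of the 10 genes was -1.75, beside 0.06 for all genes.

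The number of calls depended on single samples. Without WT sample 8, the WT sample with the highest level of 7 of the 10 genes, 2 genes were called (Adipoq and Plin4), and without lesional sample 5 the number was 9, with a median log2 fold change of -1.40. Without WT sample 9 it was 4, with 3 lower, and without WT sample 10 it was 5, with none higher. All 10 directions were unchanged in each of the 14 alternatives tried, which were 5 other settings and the removal of each skin sample in turn. Scaling by library totals moved the median of all genes from 0.06 to 0.17 and that of the 10 genes to -1.62.

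Among the secreted products, Adipoq encodes adiponectin, a hormone made almost only by adipocytes (ENSMUSG00000022878, chr16:23146536-23158028 in GRCm38). Its level was 1456, 1279 and 893 CPM in WT samples 8, 9 and 10, 938 and 733 CPM in nonlesional samples 2 and 3, and 271, 53.6, 336 and 389 CPM in lesional samples 4, 5, 6 and 7. The lesional samples lay below both other groups with no overlap, and sample 5 was the lowest of all 9. Adipoq fell 4.61-fold against WT (log2 fold change -2.20, SE 0.55, adjusted p = 0.0133), and the adjusted p stayed between 4.25e-05 and 0.0420 over all 14 alternatives.

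Lep encodes leptin, the hormone by which fat stores curb appetite (ENSMUSG00000059201, chr6:29060220-29073877). It was at 706, 447 and 310 CPM in WT samples 8, 9 and 10, 360 and 195 CPM in nonlesional samples 2 and 3, and 50.4, 9.05, 50.0 and 299 CPM in lesional samples 4, 5, 6 and 7. Lesional sample 7 was just under the lowest WT sample and within the nonlesional range, while the other lesional samples were several times lower. The difference from WT was -2.26 on the log2 scale (SE 0.97) and was not called (adjusted p = 0.0942). Without lesional sample 7 it was -3.74 and was called (adjusted p = 0.00887), and over the 14 alternatives the adjusted p ran from 0.00887 to 0.220, with DESeq2 also calling it (0.0357).

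Retn encodes resistin, which adipocytes secrete in mice (ENSMUSG00000012705, chr8:3655770-3660110). Retn was at 289, 334 and 203 CPM in WT samples 8, 9 and 10, 216 and 239 CPM in nonlesional samples 2 and 3, and 82.4, 16.6, 130 and 45.7 CPM in lesional samples 4, 5, 6 and 7. All lesional values were below all others, with sample 5 again the lowest. Retn fell 4.01-fold against WT (log2 fold change -2.00, SE 0.58, adjusted p = 0.0241). The call was lost without lesional sample 7 (adjusted p = 0.0695), WT sample 8 (0.0592) or WT sample 9 (0.0667) and with no filter on low counts (0.0605), and the alternatives ranged from 3.47e-04 to 0.0695.

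The secreted products did not keep a fixed ratio to each other. Counts of Lep per count of Adipoq were 0.485, 0.350 and 0.348 in WT samples 8, 9 and 10, 0.384 and 0.266 in nonlesional samples 2 and 3, and 0.186, 0.169, 0.149 and 0.767 in lesional samples 4, 5, 6 and 7. For Retn the ratio was 0.199, 0.261 and 0.228 in the WT samples, 0.230 and 0.327 in the nonlesional samples and 0.304, 0.310, 0.386 and 0.117 in the lesional samples, in the same order. Lesional sample 7 thus had the highest Lep ratio and the lowest Retn ratio of the 9 samples, and lesional sample 6 had the lowest Lep ratio and the highest Retn ratio.

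Plin1 and Plin4 encode perilipins, proteins of the droplet surface; perilipin 1 holds lipolysis back at rest, and perilipin 4 coats small new droplets. Plin4 (ENSMUSG00000002831, chr17:56100591-56109803) was at 1261, 859 and 1014 CPM in WT samples 8, 9 and 10, 809 and 610 CPM in nonlesional samples 2 and 3, and 239, 54.5, 281 and 333 CPM in lesional samples 4, 5, 6 and 7. The 3 groups did not overlap, with WT highest and lesional lowest. Plin4 fell 4.61-fold against WT (log2 fold change -2.20, SE 0.51, adjusted p = 0.00919) and was called in all 14 alternatives, where the adjusted p ran from 1.02e-05 to 0.0311. It shares 17 exon bases with Hdgfl2 on the opposite strand.

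For Plin1 (ENSMUSG00000030546, chr7:79720218-79732903) the values were 876, 609 and 526 CPM in WT samples 8, 9 and 10, 579 and 454 CPM in nonlesional samples 2 and 3, and 193, 21.1, 270 and 265 CPM in lesional samples 4, 5, 6 and 7. Again no lesional sample reached the other groups, and sample 5 was about an order of magnitude below the rest of its group. The difference from WT was -1.84 on the log2 scale (SE 0.68, adjusted p = 0.0607) and was not called. It was called without lesional sample 5 (-1.47, adjusted p = 0.00188) and by DESeq2 (0.0330), and the alternatives ranged from 0.00188 to 0.155.

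Cidec and Cidea encode 2 related proteins that sit where droplets touch and pass fat from the smaller to the larger one. Cidec is the form of white adipocytes; Cidea is best known from brown adipocytes and is also known from sebaceous and mammary glands. Cidec (ENSMUSG00000030278, chr6:113424634-113435760) was at 1057, 1090 and 551 CPM in WT samples 8, 9 and 10, 841 and 656 CPM in nonlesional samples 2 and 3, and 350, 30.6, 415 and 372 CPM in lesional samples 4, 5, 6 and 7. Its groups were ordered as for Plin1, with sample 5 alone far below. The difference from WT was -1.62 on the log2 scale (SE 0.71, adjusted p = 0.0982) and was not called, whereas without lesional sample 5 it was -1.24 and was called (adjusted p = 0.00680, in a range over the alternatives from 0.00680 to 0.205).

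Cidea (ENSMUSG00000024526, on chromosome 18) went the other way. Its level was 34.7, 50.9 and 33.6 CPM in WT samples 8, 9 and 10, 39.9 and 36.4 CPM in nonlesional samples 2 and 3, and 51.2, 184, 97.3 and 88.0 CPM in lesional samples 4, 5, 6 and 7. Every lesional sample was above every other one, though sample 4 exceeded WT sample 9 only slightly, and sample 5, the lowest for the other 9 genes, was the highest for Cidea. Cidea rose 2.64-fold against WT (log2 fold change 1.40, SE 0.39, adjusted p = 0.0208). Without WT sample 8 or 10 the call was lost (adjusted p = 0.0719 and 0.0743), as it was with no filter on low counts (0.0506), in a range over the alternatives from 0.00110 to 0.0743; without lesional sample 5 the log2 fold change was 0.99 and the call was kept (0.0178).

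Lipe encodes hormone-sensitive lipase, which releases fatty acids from the droplet (ENSMUSG00000003123, chr7:25379527-25398710). Its level was 590, 500 and 362 CPM in WT samples 8, 9 and 10, 417 and 360 CPM in nonlesional samples 2 and 3, and 183, 39.4, 208 and 185 CPM in lesional samples 4, 5, 6 and 7. The lesional samples were again separate from both other groups. Lipe fell 3.15-fold against WT (log2 fold change -1.65, SE 0.48, adjusted p = 0.0244), a call lost without WT sample 8 (0.0742) or 9 (0.0600) and with no filter (0.0563), in a range from 7.84e-04 to 0.0742. Lipe shares 918 exon bases with the antisense gene 4732471J01Rik, which had 0 to 21 counts per skin sample.

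Fabp4 encodes the fatty acid carrier of the adipocyte cytoplasm, also present in capillary endothelium and in macrophages (ENSMUSG00000062515, chr3:10204088-10208576). It was at 3729, 2368 and 1928 CPM in WT samples 8, 9 and 10, 2071 and 1528 CPM in nonlesional samples 2 and 3, and 1522, 507, 1203 and 1720 CPM in lesional samples 4, 5, 6 and 7. The lesional samples were below WT but overlapped the nonlesional ones. Fabp4 fell 2.16-fold against WT (log2 fold change -1.11, SE 0.40, adjusted p = 0.0499), at the edge of the threshold. The call was kept without lesional sample 5 (0.0401) or 7 (0.0411) and lost without any other skin sample, namely nonlesional 2 (0.0700) or 3 (0.0648), lesional 4 (0.0586) or 6 (0.0951) and WT 8 (0.182), 9 (0.0844) or 10 (0.0557). It was also lost with library totals (0.0789), with no filter (0.0808) and with only the compared groups in the fit (0.0543), and the alternatives ranged from 0.0103 to 0.182.

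Fabp4 fell less than most other members. Per count of Adipoq there were 2.56, 1.85 and 2.16 counts of Fabp4 in WT samples 8, 9 and 10, 2.21 and 2.08 in nonlesional samples 2 and 3, and 5.62, 9.46, 3.58 and 4.42 in lesional samples 4, 5, 6 and 7. The lesional ratios were all above those of the other groups, and this difference in ratio was not tested.

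Pparg encodes PPARγ, the nuclear receptor that adipocytes need to form and to keep their identity (ENSMUSG00000000440, chr6:115360951-115490399). Pparg was at 86.5, 46.1 and 69.8 CPM in WT samples 8, 9 and 10, 73.1 and 52.1 CPM in nonlesional samples 2 and 3, and 23.8, 18.8, 38.5 and 36.9 CPM in lesional samples 4, 5, 6 and 7. No lesional sample reached the lowest WT sample. Pparg fell 2.29-fold against WT (log2 fold change -1.19, SE 0.30, adjusted p = 0.0133), a call lost only without WT sample 8 (0.0515) among the 14 alternatives, which ranged from 4.74e-04 to 0.0515.

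**Figure D2:**
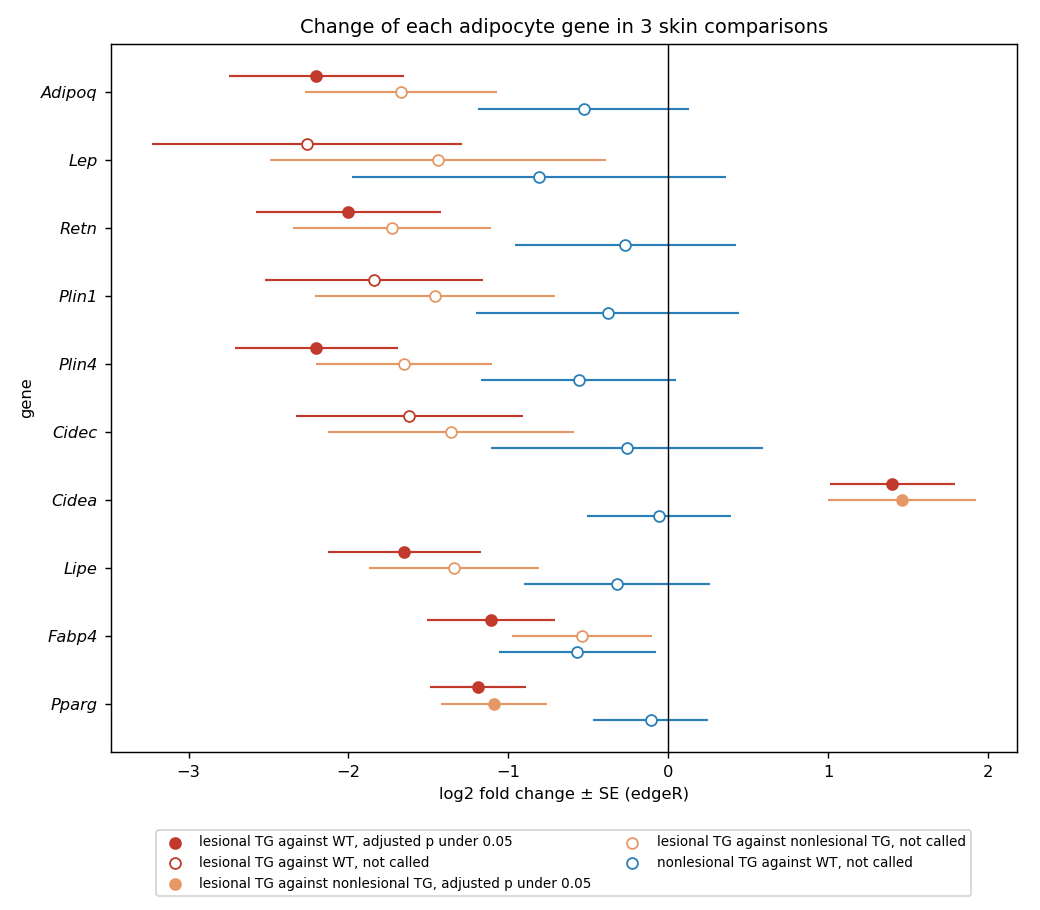
Log2 fold change of each gene (points, edgeR) with its standard error (bars) in 3 skin comparisons; filled points have an adjusted p under 0.05. In lesional TG against WT skin 7 genes are filled, in lesional against nonlesional TG skin only Pparg and Cidea, and in nonlesional TG against WT skin none.

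Across the 9 skin samples most members followed Adipoq. Pearson's r of log2 CPM with Adipoq was 0.99 for Plin4 and Lipe, 0.98 for Plin1, 0.97 for Cidec, 0.95 for Lep, 0.94 for Retn and Fabp4, 0.90 for Pparg and -0.88 for Cidea. These values describe 9 samples in 3 groups, so they mix differences between groups with differences within them, and 5.28% of all genes tested had an r above 0.9. The 5 other genes most like Adipoq were Serpina3c (r = 0.998), Ankef1 and Nr1h3 (0.997) and Dhdh and Pcca (0.996).

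Lists of other adipocyte and lipid genes, with the 10 members left out, were read from the same comparison with WT skin and against the same background of 20.2% lower and 23.0% higher. These lists were not chosen blind to the data, so their shares are descriptions. Of 8 fatty acid uptake genes, 7 fell and 1 rose, with a median log2 fold change of -1.55. Vldlr, a lipoprotein receptor (log2 fold change -3.02), and Cd36, a fatty acid transporter (-1.79), were among those that fell, and Fabp5, the epidermal fatty acid carrier, rose (3.45). Without WT sample 8 the number lower in this list was 4.

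Of 9 insulin response genes, 8 fell and Trarg1 did not pass the test (adjusted p = 0.0570), with a median of -1.50. They include Slc2a4, the insulin-regulated glucose transporter (-2.73), and Cav1 and Cavin1, which form the caveolae that are dense in the adipocyte membrane (-1.85 and -1.36). Other adipocyte markers fell in 5 of 6 cases, with a median of -1.88; Nnat fell by 3.46 and Acvr1c, a receptor of the activin family found on adipocytes, by 2.61 on the log2 scale.

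Of 9 genes of lipolysis and its control, 5 fell and none rose (median -1.59), among them Aqp7, the glycerol channel (-2.07), and Pde3b, through which insulin restrains lipolysis (-1.87). Without WT sample 8 the number was 1, and Aqp7 and Pde3b were no longer called (adjusted p = 0.0700 and 0.0512). Of 10 adipogenic transcription factors, 6 fell and 1 rose (median -1.16). Ebf1 and Zfp423, both regulators of early adipocyte commitment, fell (-1.98 and -1.67), while Cebpb, an early C/EBP factor with many roles outside fat, rose (1.00); Cebpa, the partner of PPARγ, was at 0.03 and was not called, with a sign that changed with the setting.

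The lists of fat synthesis and lipid droplet proteins had medians nearer to that of all genes. Of 14 fat synthesis genes, 3 fell, 1 rose and 10 were not called (median -0.21); Lpin1 and Gpam fell (-2.16 and -1.18). The 1 that rose, Elovl6, lost its call without any skin sample but lesional sample 4, and 3 genes rose without sample 4. Of 8 tested lipid droplet proteins, 4 fell and 2 rose (median -0.24), with Plin5, the perilipin of tissues that burn fat, at -2.88 and Hilpda, an inhibitor of lipolysis, at 1.60; the second that rose, Plin2, was no longer called without any skin sample but lesional sample 4. Without WT sample 8 or 9 the number lower in that list was 2.

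The remaining adipocyte lists held called genes as well, beside 20.2% of all genes tested called lower and 23.0% called higher. Thermogenic adipocyte genes fell in 4 of 8 tested cases and rose in 1, with Ppara, a regulator of fatty acid burning, at -1.56. Cox7a1 and Cox8b (-2.82 and -2.52) also fell, with calls lost without lesional sample 6 or 7 or any WT sample and with no filter. For both, the lesional samples were ordered as for the summed muscle genes given below, with sample 4 highest and sample 5 lowest. In this list the number lower was 1 without WT sample 8 or 10 and 2 without lesional sample 6 or WT sample 9. None rose without WT sample 9. Adipocyte progenitor and stromal genes fell in 3 of 7 cases, with Cd34 at -1.58 and Pi16 at -1.65. Adiponectin and leptin receptor genes fell in 2 of 4 cases, Adipor2 by 0.78 and Cdh13 by 1.01 on the log2 scale, and 1 rose without nonlesional sample 2 or 3. Other adipocyte secreted factors fell in 2 of 8 cases, in 1 without lesional sample 4 or WT sample 9 and in 0 without WT sample 8; Cfd, which encodes adipsin and was the most abundant of them, was at -1.52 and was not called (adjusted p = 0.100). It was called by DESeq2 (0.0224) and without lesional sample 5 (0.0454) or 6 (0.0461), in a range from 0.0224 to 0.210.

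**Figure D3:**
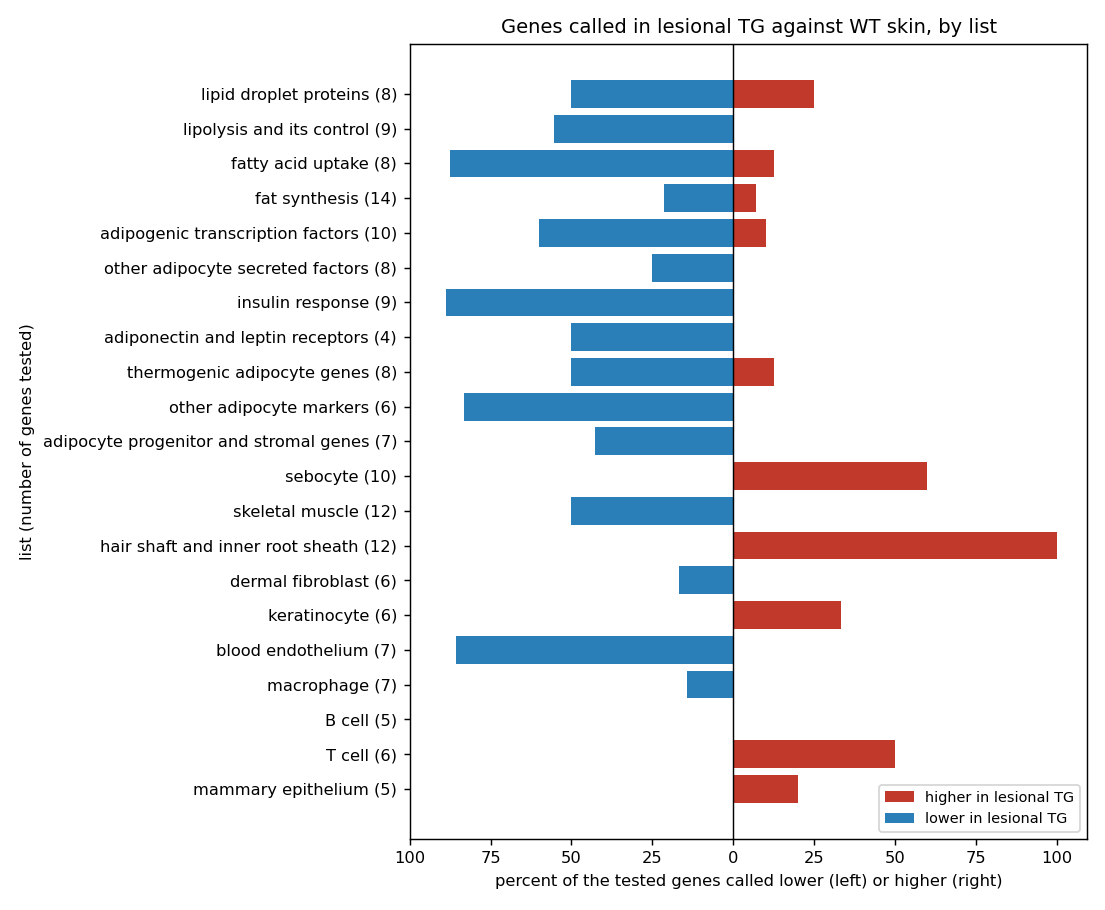
Percent of the tested genes of each list called lower (left) or higher (right) in lesional TG against WT skin by edgeR at an adjusted p under 0.05; the number tested is in brackets. Fatty acid uptake and insulin response lists have most genes lower, and the sebocyte and hair lists have genes called higher and none lower.

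Markers of other cell types moved in the same samples. Of 12 skeletal muscle genes, 6 fell against WT, and their summed level, led by Acta1 in most samples, was 33031, 39947 and 45492 CPM in WT samples 8, 9 and 10, 29796 and 35089 CPM in nonlesional samples 2 and 3, and 8528, 28.4, 443 and 1853 CPM in lesional samples 4, 5, 6 and 7. Lesional sample 5, the lowest for adipocyte genes, was also the lowest for muscle genes. The number of muscle genes called moved with every skin sample left out. It was 12 without lesional sample 4, 10 without lesional sample 5, 2 without nonlesional sample 3, 1 without nonlesional sample 2 and 0 without lesional sample 6 or 7 or any 1 of the WT samples.

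Of 10 sebocyte genes, which mark the sebaceous gland, 6 rose and none fell (median 1.17), with Elovl3 at 5.32 and Krt79, the most abundant, at 1.94. Their sum was 1063, 1343 and 941 CPM in WT samples 8, 9 and 10, 1258 and 1327 CPM in nonlesional samples 2 and 3, and 2000, 5053, 2663 and 2215 CPM in lesional samples 4, 5, 6 and 7. Sample 5, the highest for Cidea, was the highest for the sebocyte sum. All 10 sebocyte genes had counts in all 9 samples, and 1 was called lower without lesional sample 5.

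All 12 hair shaft and inner root sheath genes rose. Their sum was 7.73, 6.84 and 7.17 CPM in WT samples 8, 9 and 10, with 2 or 3 of the 12 genes at 0 counts, 7.82 and 20.8 CPM in nonlesional samples 2 and 3, and 6514, 15782, 18452 and 25122 CPM in lesional samples 4, 5, 6 and 7. The lesional samples thus held abundant RNA of growing hair and the other samples almost none. Tchh was the most abundant gene of the list in every sample but lesional sample 7, where it was Krt71.

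Of 7 blood endothelium genes, 6 fell (median -1.11), with Tek at -1.42 and Kdr at -1.21. The sum, led by Pecam1, was 350, 256 and 287 CPM in WT samples 8, 9 and 10, 267 and 212 CPM in nonlesional samples 2 and 3, and 131, 104, 192 and 195 CPM in lesional samples 4, 5, 6 and 7. The groups were ordered as for the adipocyte genes, over a much smaller range, and sample 5 was again the lowest.

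Of the other marker lists, all but the B cell list held called genes. Among all genes tested 43.1% were called, 20.2% lower and 23.0% higher. The single calls in the fibroblast, macrophage and mammary lists were no larger a share than those of all genes. Of 6 dermal fibroblast genes, 1 fell, of 7 macrophage genes 1 fell, of 6 keratinocyte genes 2 rose, of 6 T cell genes 3 rose (median 1.24), and of 5 tested mammary epithelium genes 1 rose. Of 5 tested B cell genes edgeR called 0, with 0 at an unadjusted p under 0.05 and 0 called by DESeq2. Leaving out 1 sample gave 0 macrophage genes without WT sample 8 or 9, 1 keratinocyte gene without WT sample 10 and 4 without lesional sample 7, and 3 mammary genes and 1 B cell gene without WT sample 10. The part of muscle, sebocyte, hair and endothelial RNA, and of the skin site, which the labels do not give, in the differences of the adipocyte genes was not tested. The paper places the lesions mostly on the face, with others on the back and occasionally on the extremities. It reports that nonlesional skin was taken from the back and from places matching those of the lesions, and gives no site for single samples.

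**Figure D4:**
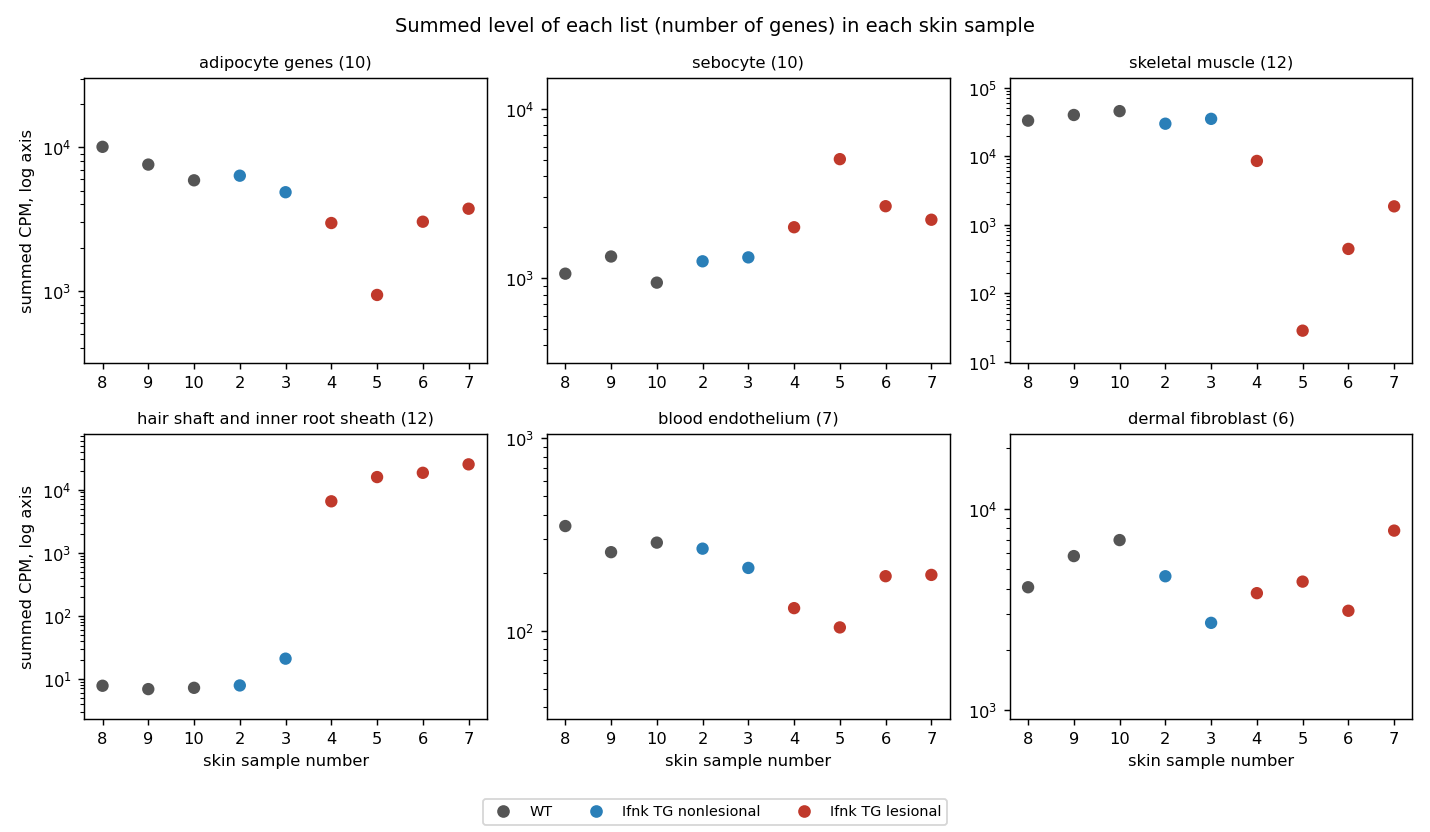
Summed CPM (log axis) of the 10 adipocyte genes and of 5 marker lists in each skin sample, by group; the number of genes is in brackets. Lesional sample 5 has the lowest adipocyte (934 CPM) and muscle (28.4 CPM) sums and the highest sebocyte sum (5053 CPM), and hair genes are high only in the 4 lesional samples.

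Lesional and nonlesional skin of TG mice were compared to ask what differs with the lesion at the same genotype. Here 1 of the 10 genes fell (Pparg) and 1 rose (Cidea), and the other 8 did not pass the test; 11.8% of all genes tested were called lower and 13.2% higher. Every lesional sample was below both nonlesional samples for 7 genes and above both for Cidea, with 24.7% of all genes tested separated in each direction, and Lep and Fabp4 overlapped. The median log2 fold change of the 10 genes was -1.40, beside 0.03 for all genes. This comparison shares the lesional samples with the one against WT, so the values of both cannot be read as independent.

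Pparg fell 2.12-fold (log2 fold change -1.09, SE 0.33, adjusted p = 0.0448) and Cidea rose 2.75-fold (1.46, SE 0.46, adjusted p = 0.0497). The members next below the threshold were Plin4 (-1.65, adjusted p = 0.0594), Adipoq (-1.67, 0.0740), Retn (-1.73, 0.0781) and Lipe (-1.34, 0.0982). Plin1 (-1.46, 0.186), Cidec (-1.36, 0.233), Lep (-1.44, 0.346) and Fabp4 (-0.54, 0.405) followed, so Fabp4 differed least.

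With 2 nonlesional samples these calls were fragile. The call of Pparg was lost without nonlesional sample 2 (0.270) or 3 (0.105), lesional sample 4 (0.0791) or 5 (0.0610) or WT sample 10 (0.0675), with library totals (0.0717), with no filter (0.0782) and with only the compared groups (0.0611), in a range over the alternatives from 0.0112 to 0.270. That of Cidea was kept without lesional sample 4 (0.0117) or 5 (0.0376) and lost without nonlesional sample 2 (0.195) or 3 (0.233), lesional sample 6 (0.0733) or 7 (0.0734) and WT sample 8 (0.0713), 9 (0.0606) or 10 (0.0699), as well as with no filter (0.102) and with only the compared groups (0.0938), in a range from 0.00372 to 0.233. Without lesional sample 5, 7 genes were called, namely Plin4 (0.00557), Adipoq (0.00793), Lipe (0.00998), Plin1 (0.0172), Cidea (0.0376), Retn (0.0386) and Cidec (0.0394). Without lesional sample 7 Lep was called (-2.92, 0.0364), and without lesional sample 6 so was Retn (-2.24, 0.0316). DESeq2 called 6 of the 10 genes.

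Among the other adipocyte lists, insulin response again had 8 of 9 genes lower (median -1.27) and none higher. Among all genes tested, 11.8% were called lower and 13.2% higher. The number lower in the list was 5 with only the compared groups, where the number of all genes lower fell from 2263 to 1339. Both numbers were smaller still without nonlesional sample 2 or 3, which leaves that group with 1 sample. The fatty acid uptake list had 1 lower and 1 higher of 8 (median -0.90), and 3 were lower without lesional sample 7.

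The remaining adipocyte lists had fewer genes lower than insulin response. Their counts stand beside the same 11.8% lower and 13.2% higher of all genes tested. With 1 sample left out, calls among all genes changed most without nonlesional sample 2 or 3. No gene of lipolysis and its control was called by edgeR among 9, with 3 at an unadjusted p under 0.05 and 3 lower by DESeq2; 4 were lower without lesional sample 5 and 1 without lesional sample 6, and 1 was higher without lesional sample 4. Of 8 other secreted factors edgeR called 0, with 2 at an unadjusted p under 0.05 and 2 lower by DESeq2; 1 was lower without lesional sample 4 or 5 and 2 without lesional sample 7. Of 6 other adipocyte markers 1 was lower, 0 without nonlesional sample 2 or 3, 3 without lesional sample 5 and 2 without lesional sample 6 or 7. Of 8 tested thermogenic genes 1 was lower, 0 without nonlesional sample 2 or 3 and 4 without lesional sample 4.

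Of 10 adipogenic transcription factors 4 were lower and 1 higher. The number lower was 0 without nonlesional sample 2 or 3, 2 without lesional sample 4 or 6 or WT sample 8 and 1 without WT sample 9, and none was higher without nonlesional sample 3. Of 14 fat synthesis genes 3 were lower, 1 without nonlesional sample 2 or lesional sample 7 and 0 without nonlesional sample 3, while 1 was higher without lesional sample 4. Of 8 tested lipid droplet proteins 3 were lower and 2 higher, with 1 lower and 1 higher without nonlesional sample 2 and 0 and 1 without nonlesional sample 3. Of 4 receptor genes 1 was lower, 3 without lesional sample 4 and 2 without lesional sample 6 or WT sample 8. Of 7 progenitor and stromal genes 2 were lower, 0 without nonlesional sample 2 or 3 and 1 without lesional sample 5 or 6 or WT sample 9 or 10.

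Markers of other cell types were called in this comparison too, beside 11.8% of all genes tested called lower and 13.2% called higher. All 12 hair genes were higher, with every skin sample left out in turn as well. Of 10 sebocyte genes 5 were higher (median 1.52), 1 without nonlesional sample 2 or 3 and 8 without lesional sample 4. Of 7 blood endothelium genes 2 were lower (median -0.59), 1 without lesional sample 5 or 6 and 0 without nonlesional sample 2 or 3, lesional sample 4 or any 1 of the WT samples. Of 12 muscle genes edgeR called 0 (median -3.55), with 8 at an unadjusted p under 0.05 and 2 lower by DESeq2; 11 were lower without lesional sample 4 and 3 without lesional sample 5.

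Of 6 T cell genes 2 were higher, 0 without nonlesional sample 3 and 1 without nonlesional sample 2, lesional sample 5 or 6 or WT sample 10, and 1 was lower without lesional sample 4. Of 5 tested mammary genes 1 was higher, 0 without nonlesional sample 2 and 3 without WT sample 10. By edgeR 0 genes were called in the fibroblast and macrophage lists (0 at an unadjusted p under 0.05 and 0 by DESeq2 in each) and 0 in the keratinocyte and B cell lists (1 at an unadjusted p under 0.05 and 1 higher by DESeq2 in each), with 2 keratinocyte genes higher without lesional sample 7 and 1 B cell gene without WT sample 10. The part of these cell types in the differences of the adipocyte genes was not tested.

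Nonlesional TG skin was compared with WT skin to ask whether the genotype shows in adipocyte genes of skin with no lesion. None of the 10 genes was called by edgeR, as none (0%) of the 19101 genes tested was, although 1465 genes had an unadjusted p under 0.05 and DESeq2 called 49 higher and 13 lower, none of them among the 10. All 10 log2 fold changes were negative, from -0.81 for Lep to -0.06 for Cidea, with adjusted p from 0.792 to 0.985. Cidea turned positive with library totals (0.01), and the signs of Cidea and Pparg also changed with single samples left out.

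Only Plin4 had both nonlesional samples below all WT samples, as 16.3% of all genes tested did. The median of the 10 genes was -0.35, beside -0.00 for all genes. With only these 2 groups in the fit, edgeR gave the 10 genes adjusted p from 0.226 for Plin4 to 0.907 for Cidea. It then called 1 gene lower among all genes, none of the 10. After adjustment, differences of this size between 2 and 3 samples could not be told from the spread between samples in either fit.

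In the lymph nodes the 10 genes together took 0.00192% (interval 0.00176 to 0.00209) to 0.00290% (0.00272 to 0.00309) of the counts, and only 4 of the 10 passed the filter on low counts, namely Lipe, Fabp4, Adipoq and Pparg. The tables of the 2 tissues were scaled separately and no test was made between them. Markers fit the labelled tissue, with summed B cell genes between 1244 and 2404 CPM and T cell genes between 2071 and 2621 CPM, against 0.570 to 3.21 CPM and 28.1 to 69.6 CPM in skin.

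Lipe was the exception to the low level. It had 515 to 875 counts per node sample, at 20.4 ± 1.87 CPM in untreated WT, 21.1 ± 2.19 in untreated TG, 19.6 ± 0.790 in UVB-treated WT and 21.6 ± 2.82 in UVB-treated TG nodes (SD, n = 3 each). The groups overlapped fully, and adjusted p for Lipe lay between 0.802 and 1.00 in the 5 lymph node comparisons. Counts of Lipe per count of Adipoq were 30.1 to 635 in the nodes, against 0.391 to 0.406 in WT skin. The antisense gene that overlaps Lipe had 1 to 28 counts per node sample.

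The 6 genes that did not pass the filter were close to absent. Lep had 1 count in UVB-treated WT sample 9 and 1 in UVB-treated TG sample 11, Cidea had 1 count in untreated WT sample 3, and Retn had 3 counts in untreated WT sample 3 and 1 each in UVB-treated WT sample 8 and UVB-treated TG sample 12. All other node samples had 0 counts of these 3 genes, which allows up to 3 counts, or 0.0811 to 0.109 CPM. Plin1 ranged from 0 to 6 counts, Cidec from 0 to 15 and Plin4 from 0 to 24.

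Traces of 5 other members were highest in 1 sample. Untreated WT sample 3 had the highest counts of the 12 nodes for Fabp4 (184), Adipoq (24), Plin4 (24), Cidec (15) and Plin1 (6). The next highest counts were 108 for Fabp4, 12 for Adipoq, 7 for Plin4, 6 for Cidec and 5 for Plin1, all of them in untreated TG samples 4 and 5. Pparg did not follow, with 9 counts in untreated WT sample 3 and its highest count, 26, in untreated TG sample 5. The 6 other adipocyte markers also summed highest in untreated WT sample 3, at 8.94 CPM, against 1.10 to 5.36 CPM in the other nodes. How much fat was left on each node is not recorded, and its part was not tested.

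UVB-treated and untreated WT nodes were compared to ask what UVB on the skin leaves in the draining node. Of the 4 genes that could be tested, Fabp4 fell and the others were not called; 2.06% of the 16173 genes tested were called lower. Fabp4 had 36, 57 and 184 counts in untreated WT samples 1, 2 and 3 and 9, 7 and 15 counts in UVB-treated WT samples 7, 8 and 9. All treated samples were below all untreated ones, as for 17.3% of all genes tested, and untreated sample 3 stood well above the others.

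Fabp4 fell 8.52-fold (log2 fold change -3.09, SE 0.67, adjusted p = 0.0319). Without untreated WT sample 3 the log2 fold change was -2.13 and the call was lost (adjusted p = 0.128). It was also lost without untreated WT sample 2 (0.0502) and without UVB-treated WT sample 7 (0.0705), 8 (0.154) or 9 (0.0768), in a range over the alternatives from 1.31e-04 to 0.154. The other 3 were Adipoq (-1.56, adjusted p = 0.219), Pparg (-1.06, 0.270) and Lipe (-0.06, 0.802). Adipoq had 11, 3 and 24 counts untreated and 2, 4 and 6 treated, and Pparg had 14, 20 and 9 untreated and 8, 2 and 10 treated, so that both overlapped. In the fits that lost the call of Fabp4, calls among all genes fell too, from 472 higher and 333 lower. They were 96 and 94 without untreated WT sample 2 and 3 and 4 without untreated WT sample 3. Without UVB-treated WT sample 7, 8 or 9 they were 281 and 212, 0 and 0, and 21 and 8.

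Of 110 list genes tested in the same comparison, 5 were called (4.55%), which is no larger a share than the 4.98% of all genes, with 2.92% higher and 2.06% lower. Cav1 (-3.06, adjusted p = 0.0269) and Cavin1 (-1.66, 0.0244) fell, as 2 of 8 tested insulin response genes (list median -0.12), and like Fabp4 they are also expressed in endothelium. Cav1 had 67, 69 and 101 counts in untreated WT samples 1, 2 and 3 and 18, 8 and 1 in UVB-treated WT samples 7, 8 and 9. Both calls were lost without untreated WT sample 3 (0.113 for Cav1 and 0.110 for Cavin1) or UVB-treated WT sample 8 (0.139 and 0.122) or 9 (0.0618 and 0.0732), and that of Cav1 also without untreated WT sample 2 (0.0539). Over the alternatives the adjusted p ran from 2.67e-05 to 0.139 for Cav1 and from 1.83e-04 to 0.122 for Cavin1.

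Prdm16, of the thermogenic list, rose (1.55, adjusted p = 0.0442), and Lum, a fibroblast gene, and Pecam1, an endothelial gene, fell (-2.14, 0.0477, and -0.43, 0.0313). These calls, like those among all genes, changed with single samples and settings too. That of Prdm16 was lost without untreated WT sample 1 (0.114), 2 (0.112) or 3 (0.131), untreated TG sample 4 (0.0658), 5 (0.0559) or 6 (0.0677), UVB-treated WT sample 8 (0.78, adjusted p = 0.219) or 9 (0.0713) and UVB-treated TG sample 11 (0.0533), and with only the compared groups (0.0648), in a range from 0.00436 to 0.219. That of Lum was lost without untreated WT sample 1 (0.138), 2 (0.0742) or 3 (0.128), untreated TG sample 4 (0.0532), 5 (0.0523) or 6 (0.0686), UVB-treated WT sample 7 (0.0918), 8 (0.158) or 9 (0.134) and UVB-treated TG sample 11 (0.0521), and with library totals (0.0573), in a range from 0.0220 to 0.158. For Pecam1 it was lost without untreated WT sample 1 (0.0507) or 3 (0.131) and UVB-treated WT sample 7 (0.0517), 8 (0.151) or 9 (0.0653), in a range from 7.87e-04 to 0.151.

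Marker sums moved in the same direction. The 7 blood endothelium genes, led by Pecam1, summed to 288, 275 and 324 CPM in untreated WT samples 1, 2 and 3 and 222, 199 and 237 CPM in UVB-treated WT samples 7, 8 and 9. The 6 dermal fibroblast genes, led by Dcn or Col1a2, summed to 65.4, 62.5 and 46.0 CPM and 37.6, 13.3 and 15.0 CPM in the same samples. Neither group pair overlapped, and the part of endothelial, stromal or fat RNA in the difference of Fabp4 was not tested.

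UVB-treated and untreated TG nodes gave no called gene among the 4 and none (0%) among all 16173 by edgeR, with 1507 at an unadjusted p under 0.05 and 70 higher and 64 lower by DESeq2, none of them among the 4. Without UVB-treated TG sample 12 edgeR called 170 higher and 66 lower, again none among the 4. Fabp4 had 60, 108 and 35 counts in untreated TG samples 4, 5 and 6 and 27, 58 and 49 counts in UVB-treated TG samples 10, 11 and 12. These groups overlapped (log2 fold change -0.41, SE 0.59, adjusted p = 0.876). Adipoq had 12, 5 and 3 counts untreated and 1, 4 and 5 treated, and Pparg had 13, 26 and 9 untreated and 5, 9 and 10 treated.

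TG and WT nodes were compared within each treatment to ask about genotype. After UVB every TG sample had more Fabp4 than every WT sample, as for 5.39% of all genes tested in that direction, with a log2 fold change of 2.10 (SE 0.67, unadjusted p = 0.00803 by edgeR). It was not called (adjusted p = 0.673), and neither was any of the 16173 genes (0%; 1131 at an unadjusted p under 0.05, and 13 higher and 8 lower by DESeq2, Fabp4 not among them). Without UVB, Fabp4 was at -0.58 (SE 0.57, adjusted p = 1.00), and again no gene was called (0%; 549 at an unadjusted p under 0.05, and 1 higher and 1 lower by DESeq2). Leaving out 1 sample gave 2 lower genes after UVB without UVB-treated TG sample 10, and 1 higher gene without UVB treatment when untreated WT sample 3 was left out.

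After UVB the medians of 2 marker lists had the same sign as the difference of Fabp4, in a comparison with no called gene. The median log2 fold change was 1.07 for the 7 blood endothelium genes and 0.68 for the 6 dermal fibroblast genes, beside 0.01 for all genes. Their sums overlapped between the genotypes, at 222, 199 and 237 CPM in UVB-treated WT samples 7, 8 and 9 and 226, 270 and 239 CPM in UVB-treated TG samples 10, 11 and 12 for endothelium, and at 37.6, 13.3 and 15.0 CPM and 30.8, 20.0 and 57.6 CPM for fibroblast genes. Endothelial sums came mostly from Pecam1, and Tek and Emcn were at 0 in UVB-treated WT sample 8 and Tek also in sample 9. Their part in the difference of Fabp4 was not tested.

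The difference between the genotypes in their UVB response was tested as an interaction. For Fabp4 it was 2.68 on the log2 scale (SE 0.88, unadjusted p = 0.00974 by edgeR, adjusted p = 0.848) and was not called, nor was any other gene (0%; 881 at an unadjusted p under 0.05, and 2 higher and 3 lower by DESeq2), while 1 gene was called lower without untreated WT sample 3. The drop of Fabp4 in WT nodes is therefore not shown to differ from the change in TG nodes. The comparisons in the nodes share their groups, so their values are not independent of each other.

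**Figure D5:**
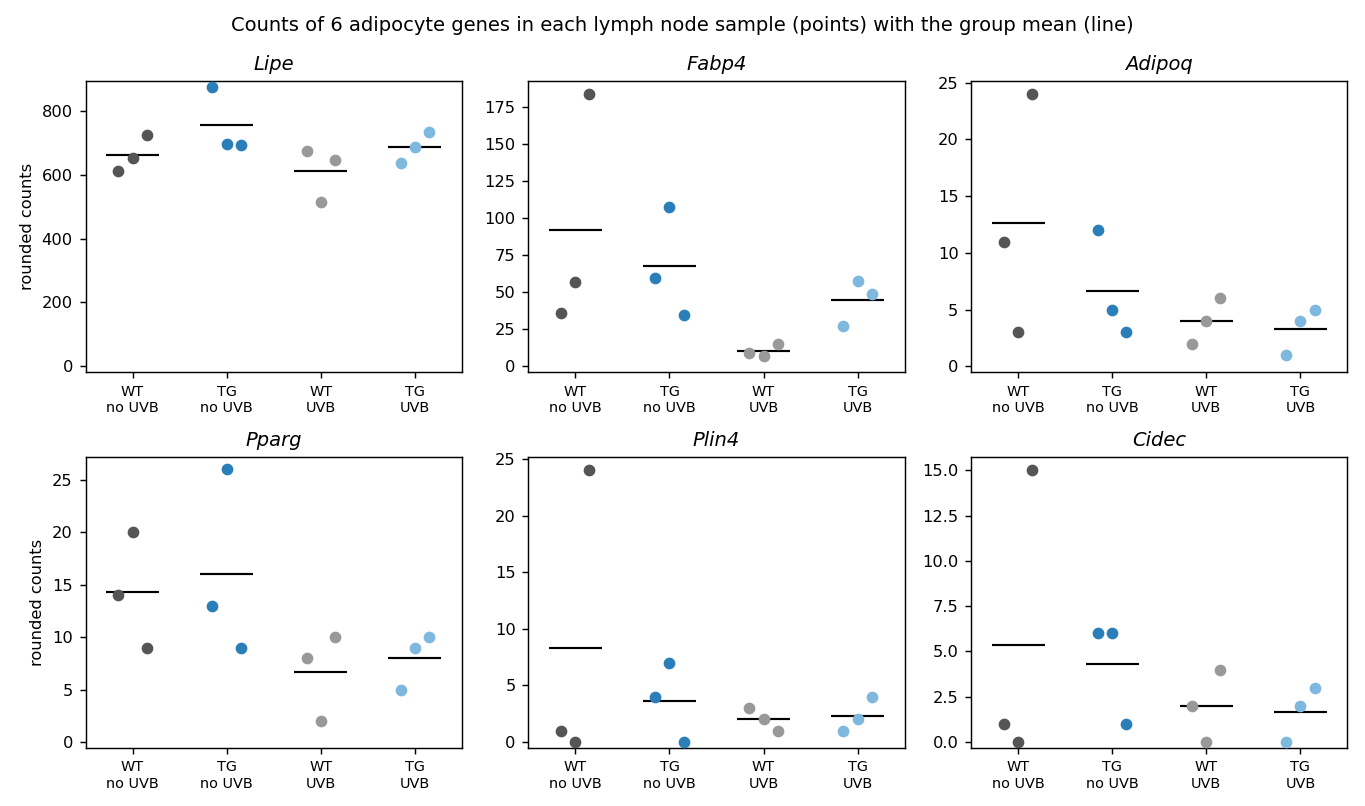
Rounded counts of 6 adipocyte genes in each of the 12 lymph node samples (points) with the group mean (line), by genotype and UVB treatment. Lipe lies between 515 and 875 counts in all samples, while Fabp4 is lowest in the 3 UVB-treated WT samples (7 to 15 counts) and highest in untreated WT sample 3 (184 counts).

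Across the 12 nodes the members were too sparse to say whether they vary together. Pearson's r of log2 CPM with Adipoq was 0.54 for Fabp4, 0.37 for Lipe and 0.19 for Pparg, but Adipoq had only 1 to 24 counts per sample, and in counts this sparse such values say little. The gene most like Adipoq was Zxdc (r = 0.903 over 12 samples, 0.796 with library totals), followed by Il4ra (0.895) and Stk24 (0.887).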

How the data were processed

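Bulk polyA RNA was measured in 9 skin and 12 inguinal lymph node samples. The authors trimmed the reads with cutadapt 4.8, checked them with FastQC 0.11.8 and MultiQC 1.20, aligned them with STAR 2.7.8a and deposited expected counts per gene from RSEM 1.3.3, which were rounded here to whole numbers. The tables do not state the strand used in counting, so reads of overlapping antisense genes may be included. The 10 genes were taken by symbol, and other genes are named only where they belong to one of the lists, overlap a member or are among the 10 genes most like Adipoq. Members and lists were chosen with earlier results of these data known.

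Analysis used R 4.3.3 with edgeR 4.0.16, and Python 3.11.15 with pandas 2.3.3 and matplotlib 3.10.9. Each tissue was fitted once with all its samples by group, with filterByExpr (minimum count 10, minimum total 15), TMM factors, a robust quasi-likelihood F-test and Benjamini-Hochberg adjustment over all genes tested, at 0.05. For log2 CPM a prior count of 2 was used. A count of 0 was taken to allow up to 3 counts, which is 0.0541 to 0.0742 CPM in skin and 0.0811 to 0.109 CPM in lymph node. Total counts ran from 40499078 to 56511276 in skin and from 27599809 to 36428435 in lymph node. Gene positions and exon lengths, over the exons of coding transcripts, come from GENCODE M21.

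Alternatives were DESeq2 1.42.0, RLE factors, library totals without factors, no filter on low counts, only the compared groups in the fit, and each sample left out in turn. The code was tested on simulated data. No sample was left out of the analysis.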

Additional observations from a re-analysis of the deposited data

Results flagged for a closer look

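A sample was marked when its gap to the nearest other sample of its group took up more of the group's range than Dixon's 95% limit allows, which for 4 samples is 0.829. Only the lesional skin group, with 4 samples, was tested this way, and all other groups have 2 or 3. Of 43 such tests 7 passed the limit, and 6 of these were among the 20 tests on the 10 genes. Chance marks about 1 in 20 groups, and the genes vary together, so the 43 tests are not independent.

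Lesional sample 5 was marked as low for 3 genes. For Cidec the gap was 0.831 of the range in CPM and 0.935 in log2 CPM, for Lipe it was 0.850 in CPM and 0.922 in log2 CPM, and for Plin1 it was 0.870 in log2 CPM. Cidec stood at 30.6 CPM in that sample and at 350 CPM in the next lowest.

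Lesional sample 7 was marked as high for Lep, with a gap of 0.857 of the range in CPM (299 CPM, next highest 50.4 CPM). Lesional sample 4 was marked as high for the summed thermogenic adipocyte genes, with a gap of 0.840 in CPM (94.2 CPM, next highest 35.4 CPM). In that sample Cox8b and Cox7a1 of this list were at 30.2 and 16.6 CPM. Its summed muscle genes were also the highest of the lesional group (8528 CPM, next highest 1853 CPM), with a gap of 0.785 that was not marked.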

How the results depend on the processing

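No paired analysis was possible because the labels give no mouse for any sample. Whether lesional and nonlesional TG samples came from the same mice is therefore not known. Where leaving out a sample left nonlesional skin with 1 sample, that sample was assumed to vary like the other groups. Genes to which DESeq2 gave no adjusted p have no value there, and the interaction has no value with only the compared groups in the fit.

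For lesional TG against WT skin, 7 of the 10 genes were called. The number was 9 with DESeq2, 7 with RLE factors, 6 with library totals, 6 with only the compared groups and 3 with no filter on low counts. With 1 sample left out it ran from 2 (without WT sample 8) to 9 (without lesional sample 5). For lesional against nonlesional TG skin it was 2, and 6 with DESeq2, 1 with library totals, 0 by edgeR with no filter, 0 by edgeR with only the compared groups, and 0 (without nonlesional sample 2 or 3 or WT sample 10) to 7 (without lesional sample 5) with 1 sample left out.

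The number of all genes called also moved. For lesional against nonlesional TG skin, 2263 genes were lower, and 1339 with only the compared groups; without nonlesional sample 3 the number was 525 lower and 657 higher, against 2519 higher with all samples. For UVB in WT nodes, 472 genes were higher and 333 lower, and DESeq2 gave 1102 and 870. Only the compared groups gave 1569 and 862, and library totals gave 221 lower. Leaving out 1 sample gave 0 higher and 0 lower by edgeR without UVB-treated WT sample 8, and 1429 higher and 1215 lower without UVB-treated TG sample 12. The number of members called there, 1, ran from 0 to 1.

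Among the 10 genes most like Adipoq, 8 in skin and 5 in lymph node were again among the first 10 with library totals.

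Directions that changed belong to differences that were not called. In nonlesional TG against WT skin, Cidea was at 0.01 with library totals, and with 1 sample left out Cidea ran from -0.17 to 0.15 and Pparg from -0.37 to 0.11. In lesional TG against WT skin Cebpa was at -0.00 with DESeq2 and with RLE factors and at -0.03 with only the compared groups, and ran from -0.11 to 0.18.

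In the nodes Lipe was at -0.02 with library totals for UVB in TG. With 1 sample left out, TG against WT without UVB ran from -1.11 to 0.40 for Fabp4, from -0.53 to 0.36 for Pparg and from -0.04 to 0.12 for Lipe. After UVB it ran from -0.65 to 0.20 for Adipoq and from -0.11 to 0.66 for Pparg. UVB in TG ran from -0.73 to 0.11 for Fabp4 and from -0.05 to 0.14 for Lipe, and the interaction from -0.06 to 1.47 for Adipoq and from -0.13 to 0.81 for Pparg.

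The limits are those of the design. Groups hold 2 to 4 samples, skin site, sex and mouse are not in the labels, and whole tissue mixes cell types in unknown amounts. In lymph nodes most of the 10 genes had too few counts to test.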
